A study of Mus musculus with 4 samples.

Results

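AP-1 is a family of dimeric transcription factors, and 9 genes for its subunits were followed here in CD4 cells from wild type mice and from sanroque mutants. The members were Fos, Fosb, Fosl1, Fosl2, Jun, Junb, Jund, Batf and Atf3, taken as all probe sets annotated to 1 of these genes alone, which gave 11 probe sets among 12393 genes named alone on the array. There were 4 Affymetrix MOE430A arrays, 2 with RNA of wild type (+/+) and 2 with RNA of homozygous mutant (san/san) mice. Sanroque arose by ENU mutagenesis of C57BL/6 males as a recessive variant found in a screen for antinuclear autoantibodies, and is known as a mutation of Rc3h1, the gene of Roquin-1, a protein that binds and destabilises mRNAs. The labels give neither the age nor the sex of the mice on the arrays, nor whether the arrays of a genotype hold separate mice, so errors and tests measure only the spread between arrays, which may be technical. The experiment information names sorted T cells for both number 1 arrays and carries the unexplained letters CBA for wild type array 2, so a difference of strain and the mutation cannot be told apart. Same-numbered arrays of both genotypes shared a hybridisation and scan day, called day 1 and day 2 below.

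Members of the Fos group (Fos, Fosb, Fosl1, Fosl2) have no stable homodimer and pair with the Jun group (Jun, Junb, Jund) through a leucine zipper, and the dimers bind the TRE and CRE elements of DNA. In T cells, antigen receptor and stress signals reach these genes through MAP kinases, and Fos, Jun, Junb, Fosb and Atf3 are induced within minutes, together with other immediate early genes. Jund is more constitutively expressed, and Batf, which lacks a transactivation domain, pairs with Jun proteins and binds with IRF factors in activated T cells and in follicular helper T cells.

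Fos and Jun had the lowest sanroque minus wild type differences of all 13579 probe sets tested, at ranks 1 and 2. Junb and Fosb were also much lower in sanroque, Jund was lower by a smaller amount, and Batf was higher. Fosl2 overlapped between genotypes, and both Fosl1 probe sets were dim on every array. The subunits were chosen by their signals in this same contrast, with the low values of Fos and Jun already known, so their differences and calls are given as a description, without a test.

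The windows below show the 250 bases before the RefSeq start (GRCm38.p6) for the 3 genes with the largest differences and for Batf, the subunit that differed in the other direction. Capitals mark matches, on either strand, to the CRE core TGACG, the TRE-like element TGACATCA, the CCAAT box, the TATA box TATAAA and the MEF2 element, and sequences read 5′ to 3′ on the strand of the gene.
Fos, chr12:85473640-85473889, plus strand: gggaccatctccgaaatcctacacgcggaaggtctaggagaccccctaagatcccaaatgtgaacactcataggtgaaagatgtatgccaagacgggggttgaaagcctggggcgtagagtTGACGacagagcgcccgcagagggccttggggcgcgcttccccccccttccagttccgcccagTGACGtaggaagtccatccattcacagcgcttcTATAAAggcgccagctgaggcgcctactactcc
Jun, chr4:95052223-95052472, minus strand: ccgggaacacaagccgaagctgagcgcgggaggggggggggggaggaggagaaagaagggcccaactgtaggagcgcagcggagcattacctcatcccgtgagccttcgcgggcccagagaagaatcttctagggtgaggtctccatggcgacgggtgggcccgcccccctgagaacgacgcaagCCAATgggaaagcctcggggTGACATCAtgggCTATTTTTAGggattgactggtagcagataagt
Junb, chr8:84978749-84978998, minus strand: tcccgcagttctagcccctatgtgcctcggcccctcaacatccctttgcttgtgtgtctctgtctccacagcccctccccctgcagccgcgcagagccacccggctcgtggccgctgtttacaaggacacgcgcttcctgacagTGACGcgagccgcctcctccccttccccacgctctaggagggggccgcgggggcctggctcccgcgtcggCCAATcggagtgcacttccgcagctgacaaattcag
Batf, chr12:85686470-85686719, plus strand: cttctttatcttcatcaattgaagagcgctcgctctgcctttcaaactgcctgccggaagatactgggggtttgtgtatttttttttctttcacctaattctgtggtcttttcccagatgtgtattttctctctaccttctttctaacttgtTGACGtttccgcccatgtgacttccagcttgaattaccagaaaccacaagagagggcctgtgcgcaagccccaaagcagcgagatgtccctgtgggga

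A window was found for 8 of the 9 genes, all but Fosl1. The CRE core TGACG, to which ATF and CREB factors bind, stood in 5 of these 8 windows, against 17.8% of all 32851 windows in the table. Fos held it at 129 and 66 bases before the start, Fosb at 60, Junb at 106, Batf at 98, and Atf3 at 7 on the opposite strand. The Jun window held TGACATCA at 45 bases before the start (2.93% of all windows). It also held the MEF2 element, the last run of capitals, at 33 (0.103% of all windows). Both elements were searched as a single exact string without variants, so the matches in Jun may follow from the choice of the strings. These shares count the exact strings only and do not measure how unexpected the matches in Jun are. CCAAT stood in the windows of Jun and Junb (33.8% of all windows), and TATAAA in that of Fos (12.4%). The full CRE TGACGTCA (1.55% of all windows), the TRE TGACTCA (4.46%) and the CArG box, the core of the serum response element (1.47%), had no match in the 8 windows, which says only that these letters are not in these 250 bases. Windows of genes that were lower and of Batf, which was higher, both held TGACG, and the windows of Fosl2 and Jund held none of the motifs.

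**Figure D1:**
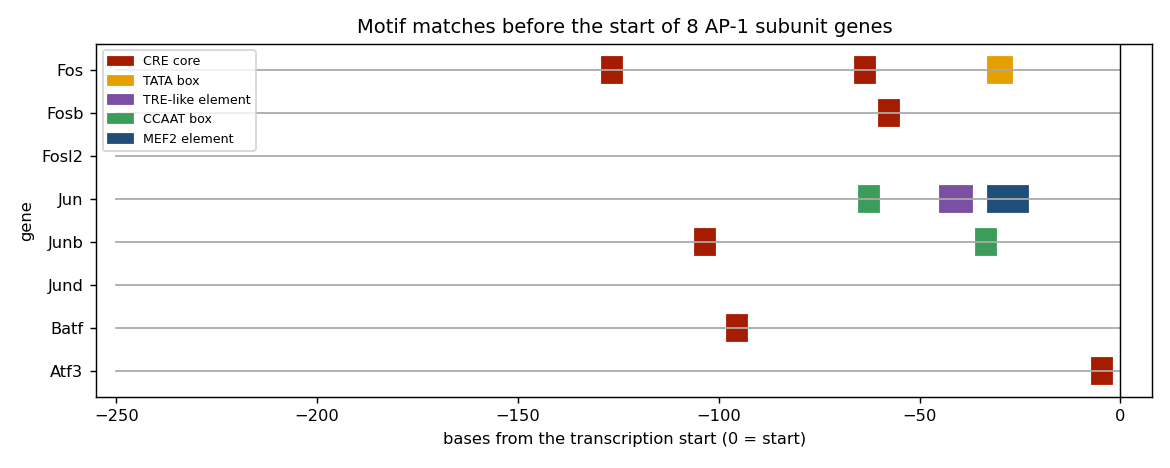
Motif matches in the 250 bases before the start of 8 AP-1 subunit genes; the x axis gives bases from the start, each line is a gene and each block a match on either strand. The CRE core stands in 5 of 8 genes, and 3 kinds of match lie within 65 bases of the Jun start.

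Fos, the founding member of the group and a partner of all Jun proteins, had a deposited signal of 2393.2 and 2968 on wild type arrays 1 and 2, and of 81 and 99.7 on sanroque arrays 1 and 2. The genotypes lay far apart, with a wild type mean of 2681 ± 406 and a sanroque mean of 90.35 ± 13.2 (SD, n = 2 each), a ratio of 29.7. On the scale log2(signal + 6), used for all differences below, sanroque minus wild type was -4.80 with a standard error of 0.188, and the 2 days gave -4.79 and -4.81. On both genotypes' arrays Fos was higher on day 2.

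Fosb, which is closely related to Fos, read 113.3 and 71.3 in wild type and 29.5 and 16.9 in sanroque. The groups did not overlap, and the higher value of each genotype was on day 1. The difference was -1.75 (standard error 0.328), with -1.75 on day 1 and -1.76 on day 2, and a ratio of the mean signals of 3.98. Without wild type array 1 or without sanroque array 2 the difference was -1.44 in each case and Fosb was no longer among the probe sets called, and the call was also absent without the filter on dim probe sets or without the variance trend.

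Fosl2 (Fra-2), a Fos-group protein without the strong transactivation domain of Fos, read 47 and 19.6 in wild type and 29.6 and 16 in sanroque. The genotypes overlapped, and day 1 exceeded day 2 in both. The array 2 minus array 1 difference was -1.05 in wild type and -0.69 in sanroque, larger than the genotype difference of -0.40 (standard error 0.466). That difference turned to 0.13 without wild type array 1. Fosl1 (Fra-1), of the same type, had 2 probe sets with signals of 9.7 and 1.5 in wild type against 10.7 and 1.8 in sanroque, and of 3.1 and 5.6 against 13.3 and 1. Both lay below the filter of 21.3 on the mean over the 4 arrays, their genotypes overlapped, and no fold is given.

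**Figure D2:**
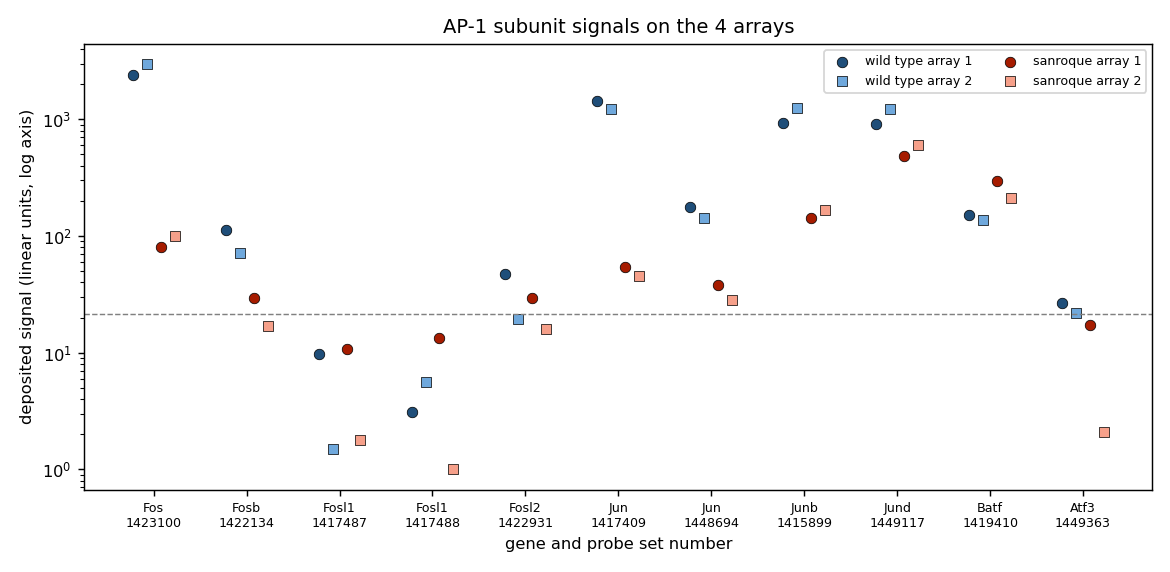
Deposited signal (log axis) of the 11 AP-1 subunit probe sets on each array; circles are number 1 arrays, squares number 2 arrays, blue wild type, red sanroque, and the dashed line marks the filter at a mean of 21.3. Fos, Fosb, both Jun probe sets, Junb, Jund and Atf3 lie lower on both sanroque arrays, and Batf lies higher.

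Jun, the usual partner of Fos, had 2 probe sets that differed in size of change. The brighter one, 1417409_at, read 1425.4 and 1219.6 in wild type and 53.9 and 45.4 in sanroque, a ratio of 26.6 between the means of 1322 ± 146 and 49.65 ± 6.01 (SD, n = 2 each). Its difference was -4.58 (standard error 0.184), and both days gave -4.58. The other, 1448694_at, read 178.8 and 144.1 against 38.3 and 28.4, with a difference of -2.09 (standard error 0.237) and a ratio of 4.84. Neither overlapped between genotypes. The difference of the brighter probe set was lower than that of the other by 2.48, with -2.52 on day 1 and -2.45 on day 2, so the amount for Jun depends on the probe set. The sanroque signals of the dimmer probe set lay close to the filter of 21.3, where a fold change on this scale is understated.

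Junb, a Jun-group member that can act against Jun at some promoters, read 923.6 and 1263 in wild type and 144.1 and 166.1 in sanroque. The groups were separated on both days, with -2.63 on day 1 and -2.88 on day 2, and the overall difference was -2.76 (standard error 0.197). The mean signals of 1093 ± 240 and 155.1 ± 15.6 (SD, n = 2 each) had a ratio of 7.05.

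Jund, often described as the subunit present in resting cells, read 906.3 and 1218.6 in wild type and 485.9 and 603.8 in sanroque. The genotypes did not overlap, but the ratio of the means was only 1.95 and the difference -0.95 (standard error 0.201), with -0.89 and -1.01 on the 2 days. Jund was not among the probe sets called, and it was with the day as a block, with the filter at the 60th percentile, or without wild type array 1 (-1.16). The Jun-group genes differed from each other in size, Junb minus Jund being -1.81 (-1.74 and -1.88 by day) and the brighter Jun probe set minus Junb -1.82 (-1.95 and -1.69 by day). Fos minus that Jun probe set was -0.22 (-0.21 and -0.24 by day), which is near the standard error of either.

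Batf read 151.6 and 136.2 in wild type and 294.9 and 211.8 in sanroque. It was the single member higher in sanroque without overlap, with a ratio of 1.76 and a difference of 0.77 (standard error 0.206), 0.93 on day 1 and 0.62 on day 2. It was not among the probe sets called, and was with the day as a block. Atf3, a stress-induced factor that binds CRE-like sites and pairs with Jun proteins, read 26.6 and 21.9 against 17.2 and 2.1. These values did not overlap but lay below the filter by their mean, so Atf3 was outside the fit. The days gave -0.49 and -1.78 for Atf3, the second resting on the low signal of sanroque array 2.

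**Figure D3:**
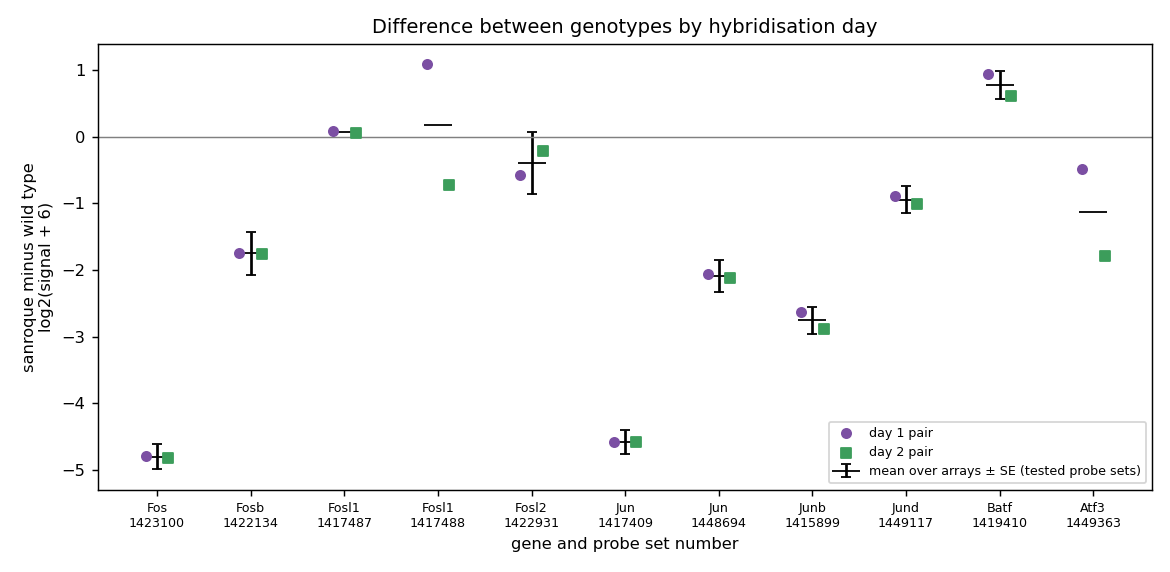
Sanroque minus wild type difference in log2(signal + 6) for the 11 probe sets; purple circles are the day 1 pair, green squares the day 2 pair, and black bars the mean difference, with its standard error where the probe set was tested. The days lie close together for Fos, Fosb and Jun, and apart for Atf3 and 1 Fosl1 probe set.

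Of the 11 probe sets, 8 passed the filter, for 7 genes. In the limma fit over all probe sets (adjusted p under 0.05, Benjamini-Hochberg), 5 of these, for Fos, Fosb, Jun and Junb, were called lower, against 0.39% of all probe sets tested, and 0 were called higher, against 0.67%; 1, Batf, was higher at an unadjusted p under 0.05. With the day as a block 6 were called lower, for 5 genes (2.68% of all probe sets), and 1 higher (3.59%). Without overlap between genotypes were 7 of the 11 in the lower direction (14.3% of all probe sets but controls) and 1 in the higher direction (21.2%). The median difference of the 8 was -1.92, with -1.90 on day 1 and -1.94 on day 2, and that of all 11 was -1.14, beside 0.01 for all probe sets tested. These counts and medians follow from how the genes were chosen.

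The day of hybridisation was not part of that choice. In 10 of the 11 probe sets the same array number had the higher signal in both genotypes, against 61.1% of all probe sets but controls. These include both probe sets of Jun, which are not independent, and dim probe sets of Atf3 and Fosl1 that lay below the filter. Of the 8 tested, all 8 had the same order, with no share given for tested probe sets alone. Fos, Junb and Jund were higher on day 2 in both genotypes, while Fosb, Fosl2, both Jun probe sets, Batf, Atf3 and Fosl1 probe set 1417487_at were higher on day 1. In Fos the day 2 minus day 1 difference was 0.31 in wild type and 0.28 in sanroque, and in the brighter Jun probe set -0.22 in each. In Fosb it was -0.63 in each. Other probe sets differed more between wild type and sanroque, as in Junb (0.45 and 0.20), Batf (-0.15 and -0.47), Fosl2 (-1.05 and -0.69) and Atf3 (-0.22 and -1.52). Since the experiment information names sorted T cells for the number 1 arrays, a difference of day and one of preparation cannot be told apart.

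**Figure D4:**
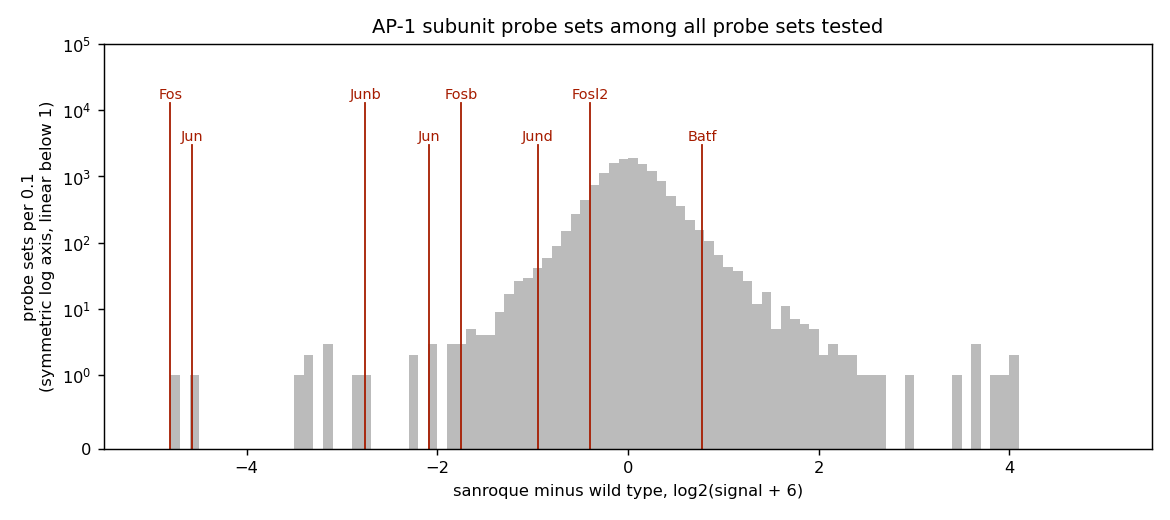
Distribution of the sanroque minus wild type difference over the 13579 probe sets tested (bars, bins of 0.1, symmetric log axis), with red lines at the 8 AP-1 subunit probe sets tested. Fos and the brighter Jun probe set lie at the lower end, apart from the other bars.

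The probe sets of other genes most like Fos over the 4 arrays, by root mean square distance of their log2 signals centred on the mean, were 1427127_x_at of Hspa1b (0.742), Hspa1a (0.771), Tnfaip3 (0.811), 1427126_at of Hspa1b (0.822) and Dusp1 (0.839). Jun itself stood nearer to Fos than any of them, at 0.282. Those nearest to Jun were Hspa1a (0.592), 3 Hspa1b probe sets (0.606, 0.643 and 0.728) and Tnfaip3 (0.744). Hspa1a and Hspa1b encode near-identical inducible heat shock proteins, whose probe sets may share signal, Tnfaip3 an inhibitor of NF-kB signalling, and Dusp1 a phosphatase of MAP kinases. With only 4 arrays the measure mostly reflects the size of the genotype difference.

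The surrounding genes were read from lists that did not enter the choice of subunits, although they too were written with earlier results known, each gene by its brightest probe set. For all list and marker counts below, the shares called over all probe sets tested were 0.39% lower and 0.67% higher. With the day as a block they were 2.68% and 3.59%. For counts at an unadjusted p under 0.05 no such share is given. Of 29 measured immediate early genes other than the subunits, 9 fell, 1 rose and 19 did not pass, with a median of -0.52. The differences were -3.18 for Tnfaip3 (limma adjusted p = 1.68e-05), -3.14 for Dusp1 (3.85e-05), -2.80 for Ppp1r15a, a regulatory subunit of the phosphatase for eIF2 alpha (3.28e-05), and -2.25 for Rgs2, a regulator of G protein signalling (0.000113). Smaller falls were those of Klf4, a Kruppel-like factor (-1.87, 0.0117), Rhob, a small GTPase gene (-1.43, 0.0141), Zfp36, which encodes an mRNA decay protein (-1.24, 0.00478), Ier2 (-1.21, 0.00586) and Btg2, an antiproliferative gene (-1.20, 0.0307). Other probe sets of Btg2 (-0.38, 0.585) and Klf4 (-1.11, 0.422) did not pass. The brightest Klf4 probe set passed the filter of 21.3 only through its wild type signals (means 93.85 in wild type, 21.15 in sanroque). Egr2 rose by 1.17 (0.0317), although its other probe set had -0.34 (0.78).

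With the day as a block 17 of the 29 fell and 1 rose. Klf6 (-0.89), Nr4a1 (-0.78) and Nr4a2 (-1.04) did not pass by their brightest probe sets without it (limma adjusted p = 0.115, 0.0828 and 0.397), and passed with it (0.000218, 0.000985 and 0.0499). Nr4a2 passed the filter on dim signals only through wild type (means 42.3 in wild type, 16.85 in sanroque). Klf6 also passed by its other probe sets (-1.53 and -1.09, adjusted p = 0.034 and 0.0471) and by its brightest without wild type array 2 (0.00825). The Btg2 call was lost when sanroque array 1 was left out (adjusted p = 0.139) and under median centring of the arrays (0.101). The Egr2 call was lost when sanroque array 1 was left out (0.182) and with quantile-normalized arrays (0.0619). Without the variance trend 4 of the 29 fell and 0 rose. Without the filter the calls of Klf4, Rhob, Btg2 and Egr2, and those of Nfatc1, Il21 and Cd44 in the lists described next, were absent (limma adjusted p = 0.0812 to 0.168). Without the variance trend these 7 and those of Ier2 and Zfp36 were absent (0.0507 to 0.253).

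Other bZIP factors, which share the dimerisation domain of AP-1, gave 0 calls among 22 measured genes in either direction. With 0.67% of all probe sets called higher and 0.39% lower, this says little about these genes. Of the 22, 12 were above 0 and 10 below, with a median of 0.04. By limma 2 were lower at an unadjusted p under 0.05, and 2 were called lower with the block (2.68% of all probe sets). The largest differences without overlap were those of Dbp (-0.93, limma adjusted p = 0.0531), a circadian bZIP factor, Atf4 (-0.91, adjusted p = 0.0515), the factor of the integrated stress response, and Creb3l2 (0.64, adjusted p = 0.624). Dbp and Atf4 passed with the block (0.0007 and 4.91e-05) and when the filter was set to the 60th percentile (0.0462 and 0.043). Atf4 also passed under quantile normalization (0.0493) and without wild type array 1 (0.00204). The second tested probe set of Atf4 had -1.20 (0.0758), and that of Dbp -0.59 (0.414).

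Genes upstream of AP-1 and genes that act on its proteins gave no calls in the limma fit. With 0.67% of all probe sets called higher and 0.39% lower, no calls in such lists say little about these genes. Over the 3 lists, 3 were higher and 2 lower at an unadjusted p under 0.05. With the block 2 were called higher (3.59% of all probe sets) and 1 lower (2.68%). Of 22 measured genes of the MAP kinase pathway, which phosphorylates AP-1 proteins and the factors at their promoters, 0 passed, with 11 above 0, 11 below and a median of 0.01. Map3k5 had 0.73 (limma adjusted p = 0.214, 0.0147 with the block), Map3k8 0.71 (0.615) and Map2k6 -0.57 (0.525). Of 15 factors and coactivators that act at the Fos and Jun promoters 0 passed, with a median of 0.17. Among them Mef2b had 0.83 (0.568), Stat3 0.48 (0.428, 0.045 with the block) and the SRF partner Elk4 0.44 (0.399). Mef2b and Map3k8 passed the filter only through sanroque (means 15.6 and 19.1 in wild type, 32.55 and 35.15 in sanroque). The other probe sets of Stat3 had 0.67 (0.132, 0.00433 with the block) and 0.10 (0.966), and those of Elk4 0.58 (0.774) and 0.00447 (0.999). Of 13 genes that act on Fos or Jun protein or activity 0 passed, with a median of 0.08, and the values were -0.97 for Csnk2a1 (0.39), -0.63 for Gsk3b (0.53) and 0.20 for Ncoa3 (0.847). The other 4 probe sets of Csnk2a1 lay between -0.39 and 0.02 and did not pass. Its brightest rested on 1 array, since wild type array 2 read 386.3 and the others 103.1 to 137.2. It was called with the block (0.00652) and without wild type array 1 (-1.70, adjusted p = 5.09e-06).

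Among 13 measured factors that bind composite sites with AP-1, such as NFAT and IRF proteins, 1 rose and 0 fell, with a median of 0.21. Nfatc1, an NFAT gene induced by antigen receptor signals, rose from 188.8 and 150.9 to 336.4 and 352.1, by 1.00 (limma adjusted p = 0.0298), while its other probe set had 0.55 (0.334). The Nfatc1 call was absent without wild type array 2 (0.0787), sanroque array 1 (0.0608) or sanroque array 2 (0.102), and under median centring of the arrays (0.192). Irf8 had 0.74 (limma adjusted p = 0.105, 0.00283 with the block) and 0.83 without wild type array 1. By its other probe set Irf8 had 0.12 (0.935, 0.785 with the block). Runx3 had -1.20 (0.422, 0.042 with the block) and Rel -0.50 (0.686). Runx3 passed the filter only through its wild type signals (means 36.95 in wild type, 12.85 in sanroque).

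Of 19 measured genes known as AP-1 targets in lymphocytes 2 rose and 0 fell, with 15 above 0 and a median of 0.52. Il21, a cytokine gene of follicular helper T cells, rose from 16.1 and 13.4 to 78.9 and 56.8, by 1.82 (limma adjusted p = 0.0307). It passed the filter of 21.3 only through its sanroque signals (means 14.75 in wild type, 67.85 in sanroque). Cd44, an adhesion receptor of antigen-experienced T cells, rose by 0.95 (0.0307), and its other probe set had 0.57 (0.607). Neither passed without sanroque array 1 (0.259 for Il21, 0.0684 for Cd44) or sanroque array 2 (0.0649 and 0.142), and Cd44 did not with median centring (0.241). Ifng had -0.94 (0.38), Ccr4 0.87 (0.619) and Il2ra, the alpha chain of the IL-2 receptor, 0.85 (0.227, 0.02 with the block), and 0.07 by its other probe set (0.979, 0.937 with the block). Ccr4 passed the filter only through sanroque (means 16.55 in wild type, 35.15 in sanroque), and Ifng only through wild type (47.05 and 21.2). With the block 5 of the 19 rose. Il2, the best known AP-1 target in T cells, lay below the filter, and Cd69 was not analysed here.

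**Figure D5:**
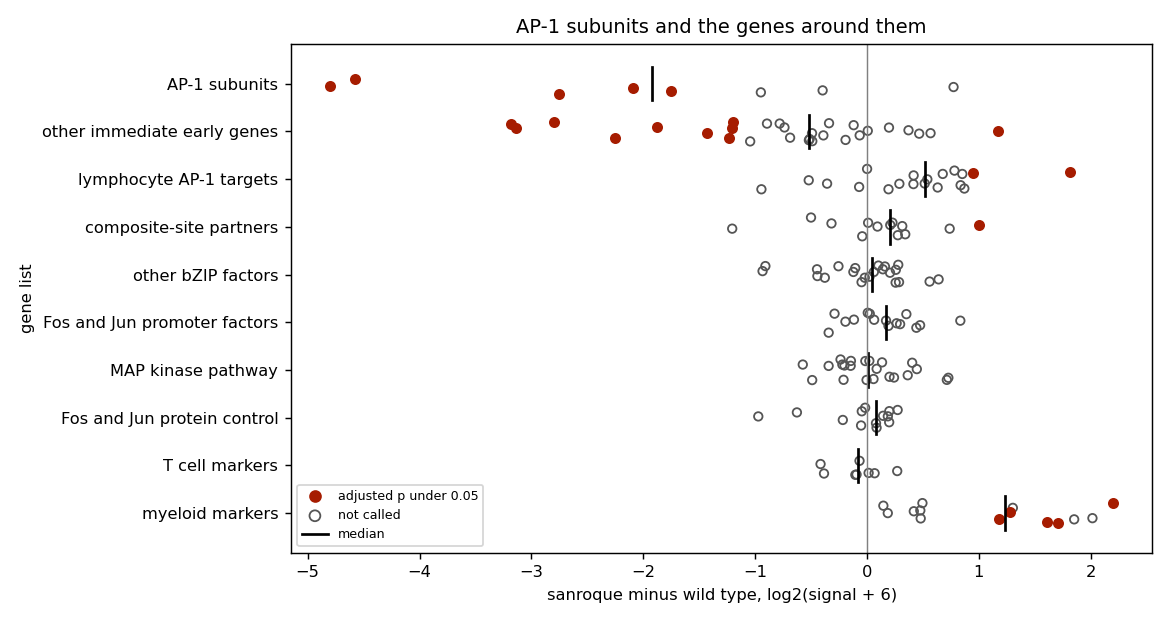
Sanroque minus wild type difference in log2(signal + 6) for the 8 AP-1 subunit probe sets tested and, by brightest probe set, for genes of 9 lists; filled red points passed limma at an adjusted p of 0.05, open points did not, and black lines are medians. Low values gather among the subunits and the other immediate early genes, and high ones among myeloid markers.

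The trimmed means of the arrays, 99.59 to 99.97, were made alike by the scaling and so do not measure evenness. The median signals of the arrays ranged from 30.8 to 40.4. T cell markers, Cd4 and the CD3 chains among them, summed to 9359.4 and 9973.2 in wild type and to 8674.7 and 9487.1 in sanroque, and 0 of 8 measured were called by limma, with 2 lower at an unadjusted p under 0.05. Myeloid markers were higher in sanroque in 14 of 14 measured genes, 5 of them called (9 with the day as a block, 2 without the variance trend), with sums of 1738.1 and 1959.9 against 4527.8 and 4542.8. Of these 14, 10 were higher without overlap between genotypes, against 21.2% of all probe sets but controls. Lcn2 (means 8.45 in wild type, 46.05 in sanroque) and Camp (10.85 and 57.15) passed the filter only through their sanroque signals. B cell markers summed to 2983 and 3030.8 against 2716 and 3070.9, with 0 of 9 called and 1 lower at an unadjusted p under 0.05. With the block 1 B cell gene was lower, Cr2 (-0.73, limma adjusted p = 0.0127). None of 4 red cell and platelet, 8 CD8 T and NK cell and 4 plasma cell genes measured was called, with 2, 1 and 1 at an unadjusted p under 0.05. With the block 2 red cell genes, Alas2 and Slc4a1, and 1 gene of CD8 T or NK cells, Nkg7, were higher (limma adjusted p = 0.00383, 0.00481 and 0.00519), and 1 red cell or platelet gene was called higher without wild type array 1. No measured marker was at 0, but those measured had passed the filter on dim signals. The part of other cells in the AP-1 values was not tested, and in such bulk RNA fewer cells of a type and less RNA per cell cannot be told apart. As a measure of RNA quality, the ratio of 3′ to 5′ control signals was 0.701 and 0.826 in wild type and 0.785 and 0.81 in sanroque for Gapdh, and 1.17 and 1.06 against 1.18 and 1.17 for Actb. These ratios overlapped between genotypes for Gapdh and for Actb.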

How the data were processed

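The deposited table holds linear intensity values, 1 for each probe set on each array, which the authors had scaled to a common trimmed mean, as the values show. How probes were summarised and corrected for background is not given in the sources used here. Per the file headers, the chips were MOE430A. No further scaling was applied to the 22690 probe sets. The fit covered 13579 of them, without 64 control probe sets and without any whose mean signal was below the 40th percentile (21.3). Values were analysed as log2(signal + 6), on which the change of dim probe sets is understated. Symbols came from the platform annotation, updated by gene identifier through the RefSeq table of GRCm38.p6: 20380 probe sets had 1 symbol, 691 several and 1555 none listed.

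The genotypes were compared in R 4.3.3 with limma 3.58.1 (lmFit, eBayes with trend, two-sided, no covariates), and p-values were adjusted over the whole fit by Benjamini-Hochberg; the fit was tested on simulated data. Group and number came from the titles. Same-numbered arrays shared a hybridisation and scan day per the file headers, so the numbers pair the arrays; deviations from the genotype mean correlated with 0.392 across probe sets. The members and lists were chosen with earlier results of these data known. Named were all members, the genes of each pathway list that passed, up to 3 others per list with the largest difference without overlap, and the 5 nearest probe sets to Fos and to Jun; second probe sets, markers and Il2 and Cd69 were added after values were seen. Alternatives were other scalings, pseudocounts, filters and probe set rules, no variance trend, the day as a block, and each array left out. Promoter windows came from RefSeq, GRCm38.p6. Plots were made in Python 3.11.15 with matplotlib 3.10.9.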

Additional observations from a re-analysis of the deposited data

How the results depend on the processing

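Fos, both Jun probe sets and Junb kept their direction and their call under all 12 alternatives run, Fos between -4.95 and -4.56, the brighter Jun probe set between -4.71 and -4.19 and Junb between -2.98 and -2.53. Fosb kept its direction in all 11 alternatives in which it was tested and lost its call in 4. It was not tested with the filter at the 60th percentile, which it did not pass. Fosl2 (-0.40) ranged from -0.92 to 0.13 with each array left out, above 0 without wild type array 1. The count of subunit probe sets called stayed within 1.5 times of 5 throughout. Their median difference of -1.92 was -1.98 under quantile normalization, -2.01 with median centring, -2.10 and -1.49 with pseudocounts of 1 and 24, -1.14 without the filter, -2.42 with the filter at the 60th percentile, -1.75 by the brightest probe set of each gene, and -2.17 to -1.67 with each array left out. The count of all probe sets called, 144, was 56 without the filter, 47 without the variance trend, 852 with the replicate block and 105 to 356 with each array left out. Of the pathway genes, 13 were called, against 6 without the filter, 4 without the variance trend, 31 with the replicate block and 8 to 18 with each array left out. With 1 array left out, the lone array of that genotype is assumed to vary like the others. The replicate block, by day, left the subunit differences as they were and added Jund and Batf to those called. The number of arrays limits the precision, and dim probe sets, such as those of Fosl1 and Atf3, give no usable level.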
